A study of Mus musculus with 6 samples.

Results

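The 10 genes described here make or store the lipids of the sebaceous gland: the desaturases Scd1 and Scd3, the elongases Elovl3, Elovl4 and Elovl6, the fatty acid hydroxylase Fa2h, the wax ester synthases Awat1 and Awat2, the lipid droplet protein Cidea and the fatty acid synthase Fasn. They were chosen by gene symbol in the platform annotation, and 11 probes of the 45281 on the array carry one of these symbols (10 of 19057 annotated genes). Their levels were followed in full-thickness wounds of dorsal mouse skin, taken 8 days after injury on 6 Illumina bead arrays.

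The study altered beta-catenin, the transcriptional co-activator of Wnt signalling, in 2 experiments. In the first, C57/BL6 mice of 2 months with β-Catenin flox/flox (exon 3) received an adenovirus with Cre, which leaves a stabilised protein (1 array), or an adenovirus with GFP (1 array, the GFP control). In the second, C57/BL6 mice with β-Catenin flox/flox (exons 2-6) received tamoxifen in every case, and either carried Cre-Esr1 (knockdown, 2 arrays) or did not (tamoxifen control, 2 arrays). Replicate 1 of both tamoxifen groups was aged 5 months and replicate 2 was aged 2 months. Which promoter drives Cre-Esr1, which cells took up the virus and whether RNA of several animals was pooled are not stated in the labels.

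Sebocytes fill with neutral lipid and burst to release sebum, a mixture rich in wax esters and triglycerides. Fatty acid synthase builds palmitate, elongases of the Elovl family lengthen it, and stearoyl-CoA desaturases place a double bond in it. Awat enzymes join acyl groups to fatty alcohols, and Cidea coats the droplets in which the products are kept. The hydroxylase Fa2h adds a hydroxyl group to fatty acids of sphingolipids. In skin several of these genes are also read in other cells, since adipocytes use Scd1, Elovl6, Fasn and Cidea, and Elovl4 serves the ceramides of the epidermal barrier.

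Promoters of 6 of the 10 genes were searched, from a RefSeq table of build GRCm38.p6. Windows of the 3 detected genes among these (Elovl6, Elovl4 and Awat2) are shown. The table held none for Scd1, Elovl3 and Fa2h, and Cidea was left out of the search. Each window is the 250 bases before a start site, on the gene's own strand. Elovl6, with the largest difference of these 3, lies on the plus strand at chr3:129532136-129532385. Elovl4, with the smallest of these 3, lies on the minus strand at chr9:83806306-83806555. For the wax synthase Awat2 the table lists 2 start sites, and the window of one, on the minus strand at chrX:100442718-100442967, is shown.
Elovl6: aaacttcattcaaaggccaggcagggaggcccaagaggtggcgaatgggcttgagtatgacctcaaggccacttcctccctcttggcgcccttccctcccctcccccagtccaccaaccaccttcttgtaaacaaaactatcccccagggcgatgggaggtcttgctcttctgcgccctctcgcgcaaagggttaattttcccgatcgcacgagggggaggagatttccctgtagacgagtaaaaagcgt
Elovl4: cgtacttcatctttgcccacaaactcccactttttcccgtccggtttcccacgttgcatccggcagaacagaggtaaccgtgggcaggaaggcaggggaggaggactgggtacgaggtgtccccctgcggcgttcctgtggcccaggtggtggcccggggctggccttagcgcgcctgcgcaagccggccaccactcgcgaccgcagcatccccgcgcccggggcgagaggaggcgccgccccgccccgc
Awat2: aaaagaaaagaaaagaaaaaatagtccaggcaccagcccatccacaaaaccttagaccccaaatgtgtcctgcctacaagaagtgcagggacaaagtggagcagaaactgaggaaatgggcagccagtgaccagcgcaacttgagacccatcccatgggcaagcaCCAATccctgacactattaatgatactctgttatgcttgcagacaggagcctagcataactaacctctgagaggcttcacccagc
Capitals mark a match to 1 of 4 motifs searched on both strands. These were the core of the sterol regulatory element (TCACNCCA, in 3.67% of 32851 promoters of the same length), the CCAAT box (CCAAT, 33.8%), the direct repeat 1 bound by nuclear receptors (AGGNCA, any base, AGGNCA again, 0.338%) and the Tcf/Lef core (ANCAAAG, 16%), with overlapping matches counted. The Elovl6 and Elovl4 windows held none of the 4. Both Awat2 windows held 1 CCAAT box each, from 85 to 81 bases before the start in the window shown. The Scd3 window held 2 sterol regulatory element cores, the Fasn window 3 CCAAT boxes and the Awat1 window no match. A match describes letters and not binding.

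Detection was called where the deposited detection p was under 0.01, which held for 15217 to 16656 probes per array. Levels are given as log2 normalized intensity, 1 unit being a 2-fold difference on that scale. Skin and dermal markers were detected throughout, the keratin gene Krt5 reading 12.31 to 14.12 and the collagen gene Col1a1 15.02 to 15.60 over the 6 arrays. The 4 probes of Ctnnb1, the gene of beta-catenin, differed by -0.30 to 0.20 between knockdown and tamoxifen control and by -0.32 to 0.25 between stabilised and GFP control, and their place relative to the deleted exons is unknown, so they check nothing. Xist, which silences an X chromosome in females, read 10.12 to 10.42 on both adenovirus arrays and 4.59 to 4.67 on all 4 tamoxifen arrays, so sex goes with the experiment in any reading of levels across both.

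Of the 10 genes, 7 were detected on at least 1 array, 4 of them (Scd1, Elovl4, Elovl6 and Cidea) on all 6. The single probes of Scd3, Awat1 and Fasn were not well above background on any array. Scd3, a desaturase of mouse skin, read 4.94 to 5.45, Awat1 4.56 to 4.77 and Fasn 4.5 to 5.01 over the 6 arrays. No direction is given for these 3 genes, and a probe at background does not show that a gene is silent. Elovl6 had 2 probes, of which the dimmer read 4.61 to 5.49 and was below detection on every array. The values of Elovl6 below are those of its brighter probe.

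**Figure D1:**
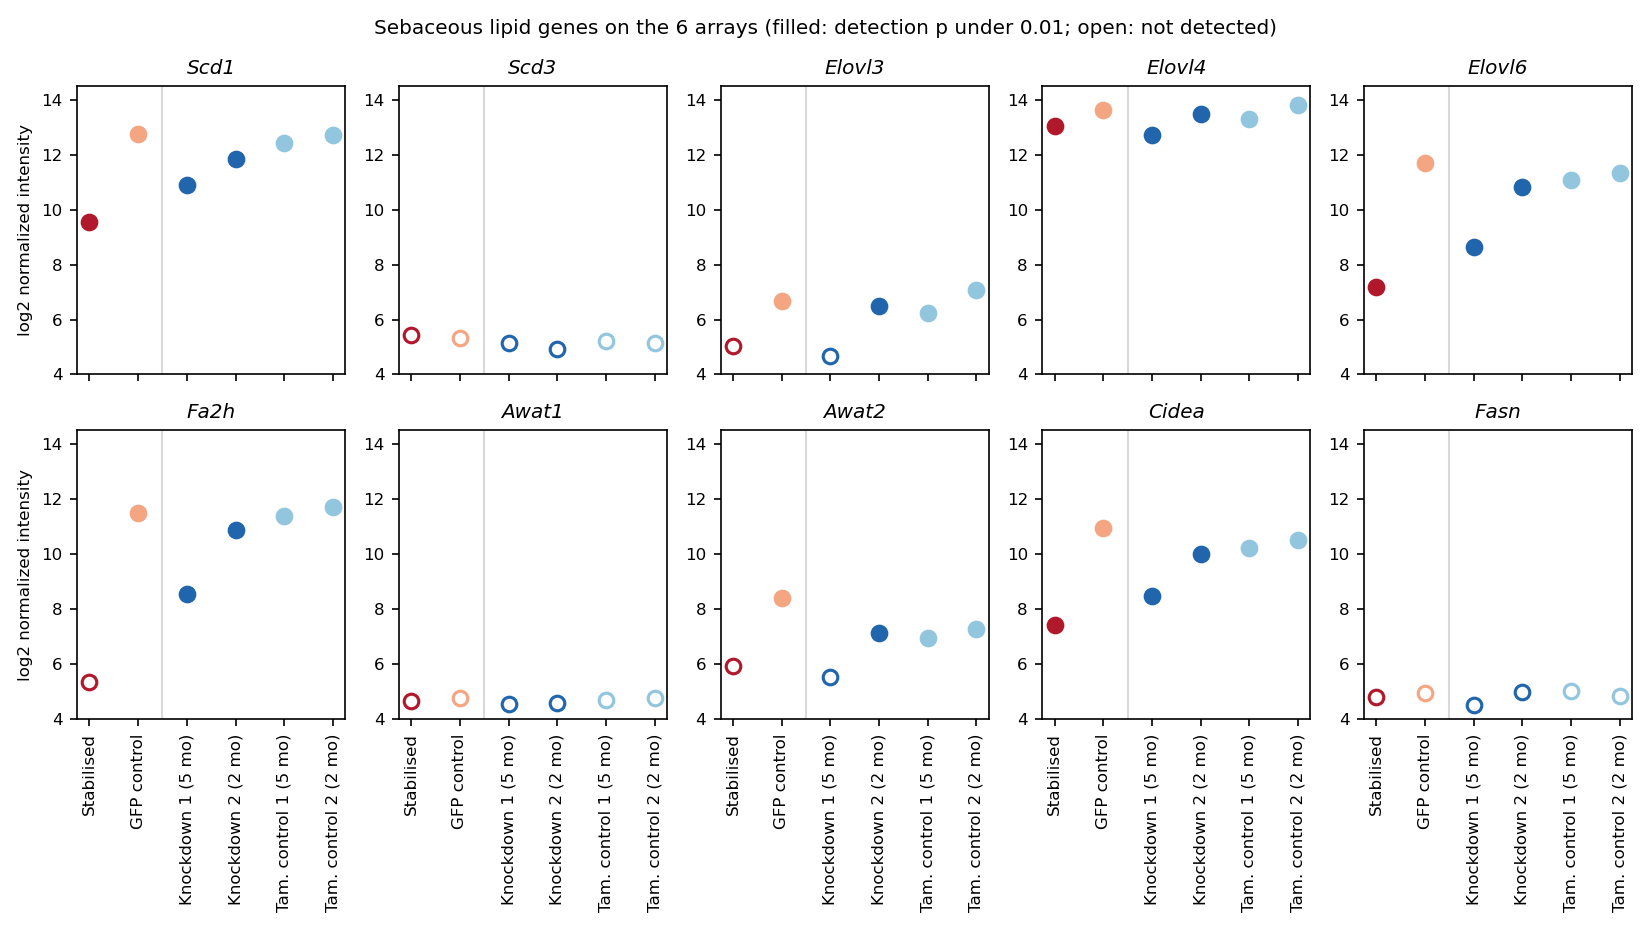
Log2 normalized intensity (vertical axes) of the 10 genes on each of the 6 arrays (horizontal axes), 1 point per array; filled points had a detection p under 0.01 and open points did not. Fa2h, Elovl6, Cidea and Scd1 read lower on the stabilised than on the GFP control array, and lowest of the 4 tamoxifen arrays on knockdown replicate 1, and Scd3, Awat1 and Fasn have open points throughout.

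The comparison of stabilised with GFP control wounds asked what an excess of beta-catenin does to the wound. Detected sebaceous lipid genes were lower on the stabilised array. On the deposited values Fa2h was at least 36.4-fold lower, Elovl6 22.8-fold, Cidea 11.7-fold and Scd1 9.21-fold. Each group had 1 array, so none of these differences has a replicate check or a p-value. As measured, 6 of the 10 genes were at least 2-fold lower and 0 at least 2-fold higher, 1 (Elovl4) was lower by less, and 3 were below detection on both arrays. Over the 10002 genes detected on at least 1 of these arrays, 4.91% were at least 2-fold lower and 2.76% at least 2-fold higher (7.67% either way). Of the 6, Fa2h, Elovl3 and Awat2 were below detection on the stabilised array and entered the count through the GFP control array alone, so the filter itself fixes much of their direction. With such genes at their bounds 5 of the 10 were at least 2-fold lower, Elovl3 no longer being one, against 3.3% of all genes. For the same 5 the measured difference was past 4-fold lower, against 1.31% of all genes.

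Among the desaturases, Scd1, which makes oleate and palmitoleate, read 9.54 on the stabilised array and 12.74 on the GFP control array. Its log2 difference of -3.20 was rank 45 of 10002 counted from the lowest. Among the elongases, Elovl6, which turns palmitate into stearate, read 7.19 on the stabilised and 11.70 on the GFP control array, a difference of -4.51 (rank 20). Elovl3, which makes saturated and monounsaturated very long chains, read 5.02, below detection, on the stabilised array and 6.67 on the GFP control array, at least 1.29-fold lower. Elovl4, which makes the longest chains of epidermal ceramides, read 13.05 on the stabilised and 13.64 on the GFP control array, a difference of -0.59 (rank 1019).

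Fa2h read 5.35, with a detection p of 0.0929, on the stabilised array and 11.49 on the GFP control array. The deposited intensities behind these values were 152 and 3158. With Fa2h below detection on the stabilised array, its log2 difference is bounded at -5.19 or lower on the deposited log2 scale. Awat2, which joins fatty acids to long-chain alcohols, read 5.93, below detection, on the stabilised and 8.40 on the GFP control array, at least 4.29-fold lower. Cidea read 7.41 on the stabilised and 10.95 on the GFP control array, a difference of -3.54 (rank 36). The median over the 10 genes was -2.06, or -1.35 with the 3 genes below detection on the stabilised array at their bounds, against 0.05 over all genes counted. Without background correction, on raw log2 intensities centred on each array's median, that median was -1.08 (-1.27 with normexp at an offset of 50) and the median of all genes counted was -0.11, and Elovl3 (-0.62) was no longer past 2-fold. Fa2h (-4.82 with normexp, -4.32 on raw centred intensities) and Awat2 (-1.68 and -1.45) then differed by less than their bounds. These bounds therefore hold on the deposited scale only. The split of all genes past 2-fold also depends on the background correction, with 64% of them lower on the deposited values and 83.6% on the raw ones.

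**Figure D2:**
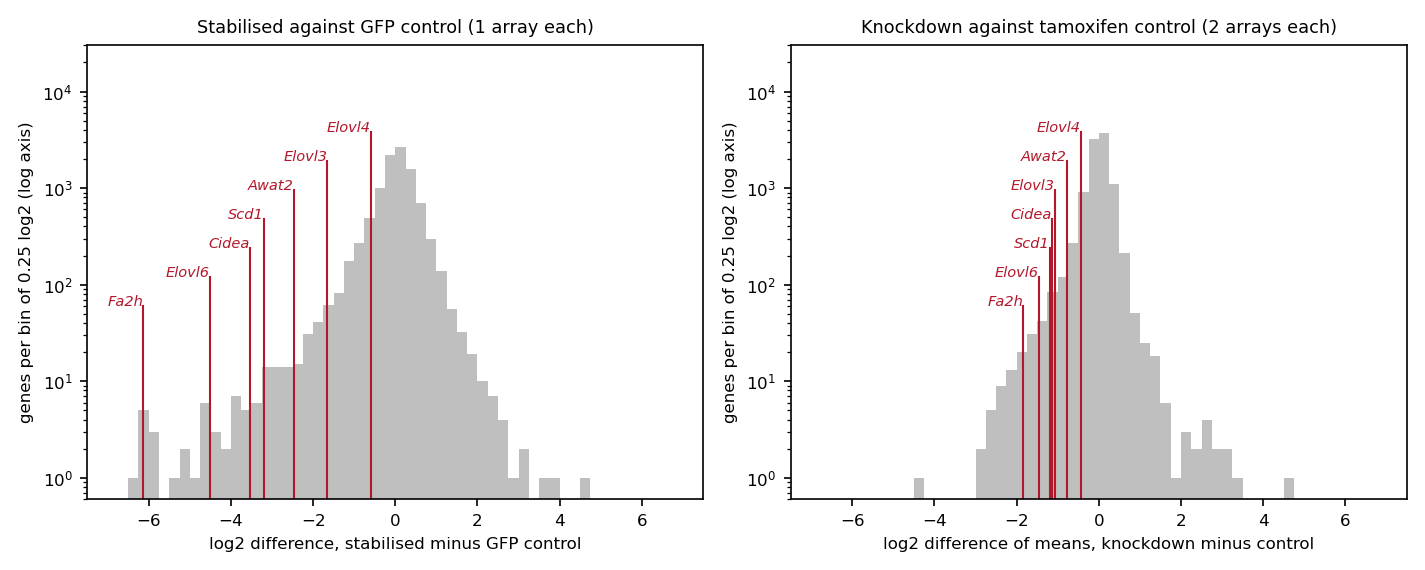
Histograms of the log2 difference of all genes counted (grey, bins of 0.25, logarithmic vertical axis), for stabilised minus GFP control on the left and for knockdown minus tamoxifen control on the right, with the 7 detected sebaceous lipid genes as red lines whose heights carry no value. Fa2h lies at -6.14 as measured, its stabilised value being below detection, and Elovl4 at -0.59 on the left, and at -1.84 and -0.43 on the right.

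Loss of beta-catenin was compared in the tamoxifen groups. Fa2h, Elovl6, Scd1 and Cidea were 3.58-fold, 2.76-fold, 2.27-fold and 2.20-fold lower in knockdown than in tamoxifen control wounds by their means, and none of the 7 tested genes passed the threshold. With limma, 0 of these 7 and 0 of all 9855 genes tested (0%) had an adjusted p under 0.05, and the smallest adjusted p of any gene was 0.264. One of the 7, Scd1, had an unadjusted p under 0.05 (0.0235), as did 4.4% of all genes and 2.52% in the direction lower. All 7 means were lower in knockdown, as were 48.1% over all genes. The knockdown arrays lay wholly below the control arrays for 4 of the 7 (Scd1, Elovl6, Fa2h and Cidea), against 16% of all genes (33.1% without overlap either way). The remaining 3 genes of the 10 were not tested, being below detection.

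Scd1 read 10.91 and 11.85 on knockdown replicates 1 and 2, against 12.42 and 12.71 on control replicates 1 and 2. Both knockdown arrays lay below both controls, and the log2 fold change was -1.18 ± 0.36 (SE, n = 2 each), with an adjusted p of 0.976 in limma. Elovl6 read 8.62 and 10.84 on the knockdown arrays, against 11.06 and 11.32 on the control arrays. The groups did not overlap, but knockdown replicate 1 minus replicate 2 was -2.21 (log2 fold change -1.46 ± 0.75, SE, n = 2 each, limma adjusted p = 0.976).

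Elovl3 read 4.68, below detection, and 6.51 on the knockdown arrays, against 6.24 and 7.09 on the controls. Elovl4 read 12.71 and 13.50 on the knockdown arrays, against 13.29 and 13.79 on the controls. In both genes the groups overlapped, since knockdown replicate 2 read above control replicate 1. Their log2 fold changes were -1.07 ± 0.68 and -0.43 ± 0.34 (SE, n = 2 each, limma adjusted p = 0.976 for both).

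Fa2h read 8.54 and 10.88 on the knockdown arrays, against 11.39 and 11.71 on the controls. Its fold change, -1.84 ± 0.79 on the log2 scale (SE, n = 2 each, limma adjusted p = 0.976), was rank 40 of 9855 from the lowest. Cidea read 8.46 and 10.004 on the knockdown arrays, against 10.21 and 10.52 on the controls, with a log2 fold change of -1.13 ± 0.54 (SE, n = 2 each, limma adjusted p = 0.976). In both genes knockdown replicate 1 was far below the other tamoxifen arrays, and replicate 2 was nearer the controls but below both. Against control replicate 2, knockdown replicate 2 differed by -0.83 for Fa2h and -0.52 for Cidea. Awat2 read 5.53, below detection, and 7.12 on the knockdown arrays, against 6.95 and 7.27 on the controls, so the groups overlapped. Its mean difference of -0.78 was 0.015 without knockdown replicate 1, and its limma adjusted p was 0.976.

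Knockdown replicate 1 carried most of the difference. The median over the 10 genes was -0.92, against 0.0097 over all genes tested. It was -0.54 with normexp at an offset of 50 and -0.40 on raw centred intensities. Leaving out knockdown replicate 1 brought it to -0.20, and leaving out replicate 2 to -1.62. Without replicate 1 the log2 fold change was -0.71 for Scd1, -0.67 for Fa2h, -0.36 for Elovl6 and -0.36 for Cidea. Without replicate 2 it was -1.66 for Scd1, -3.01 for Fa2h, -2.57 for Elovl6 and -1.91 for Cidea. Within the 5-month pair, 6 of the 7 detected genes were at least 2-fold lower as measured on the knockdown array, Fa2h by 7.22-fold and Elovl6 by 5.43-fold, while 2.8% of all genes tested were. All 7 were lower there, as were 43.4% of all genes. Elovl3 and Awat2 were below detection on that knockdown array, which bounds them at least 1.07-fold and 1.76-fold lower. At these bounds 4 of the 7 (Scd1, Elovl6, Fa2h and Cidea) were at least 2-fold lower, against 2.45% of all genes. Within the 2-month pair, 0 of the 7 were 2-fold lower, against 2.18% of all genes. Their differences there ran from -0.14 for Awat2 to -0.86 for Scd1, each of the 7 being lower, as were 52.8% of all genes. With 1 array at each age in each group, whether the size of the difference depends on age was not tested.

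Arrays of the same group also differed. The 5-month control array read lower than the 2-month one for all 7 detected genes, and 46.3% of all genes were lower there. The difference ran from -0.26 for Elovl6 to -0.85 for Elovl3. The 5-month knockdown array read lower than the 2-month one for all 7 too, from -0.79 for Elovl4 to -2.34 for Fa2h as measured, where 40.9% of all genes were lower. As measured this gap was past 2-fold for 5 of the 7, against 3.27% of all genes. With Elovl3 and Awat2, below detection on the 5-month array, at their bounds it was past 2-fold for 3 (Elovl6, Fa2h and Cidea), against 2.77% of all genes. The knockdown arrays stood farther apart than the group means for 6 of the 7, and not for Scd1. For Elovl3 and Awat2 this holds as measured, the 5-month knockdown array being below detection.

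The stabilised pair and the 5-month knockdown pair share no array. Fa2h was at -5.19 or lower in the stabilised pair and at -2.85 in the knockdown pair, ahead of Elovl6 in both. Elovl6 was at -4.51 and -2.44, Cidea at -3.54 and -1.75 and Scd1 at -3.20 and -1.51, in the stabilised and the knockdown pair. Elovl4 was at -0.59 and -0.57. Elovl3 and Awat2 were below detection on the low array of both pairs, so they have no place in this order. Their bounds in the stabilised pair were -0.37 for Elovl3 and -2.10 for Awat2, and in the knockdown pair -0.10 for Elovl3 and -0.82 for Awat2. In the 2-month pair the lowest were Scd1 (-0.86) and Fa2h (-0.83). The 7 detected genes read lower in each of the 3 pairs, stabilised and knockdown alike, as did 14.9% of the 10289 genes detected in either experiment. Of the 7, 6 were at least 2-fold lower as measured in both the stabilised and the 5-month pair, against 1.19% of those genes. At bounds, 4 of the 7 (Scd1, Elovl6, Fa2h and Cidea) were, against 0.719%.

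**Figure D3:**
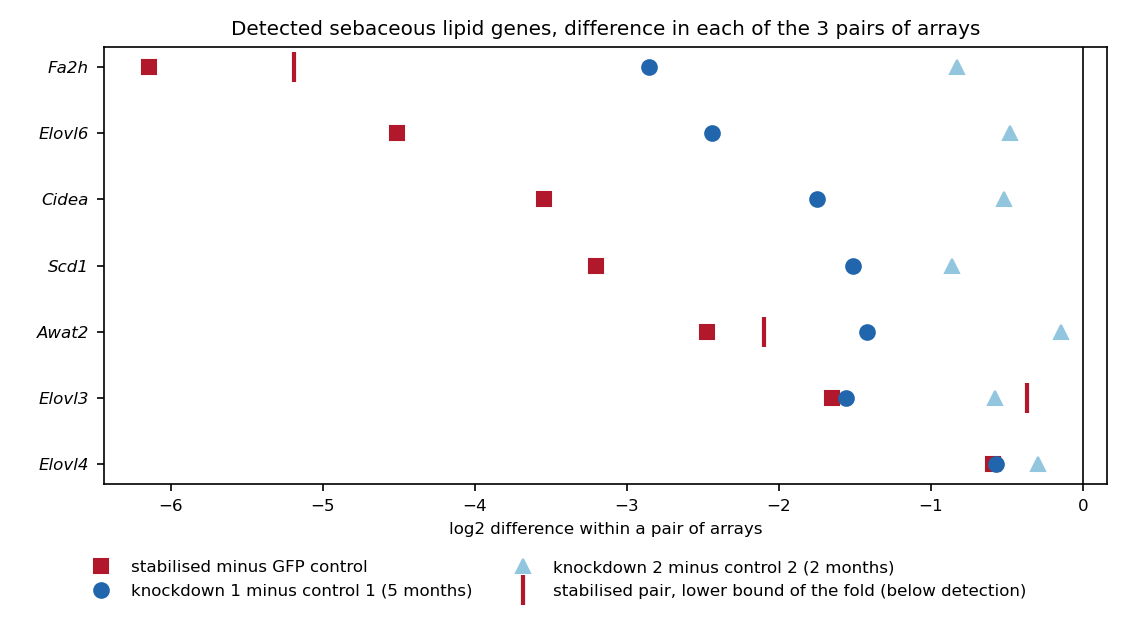
Log2 difference (horizontal axis) within each of 3 pairs of arrays for the 7 detected genes (rows), as squares for stabilised minus GFP control, circles for knockdown minus control at 5 months and triangles for knockdown minus control at 2 months; vertical red bars give the bound where the stabilised array was below detection. Every symbol lies left of 0, and Fa2h spans -6.14 as measured (bound -5.19) to -0.83.

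Other markers of sebocytes were counted from a list that shares Dgat2l6, Plin2, Far2 and Soat1 with the lipid lists. Of 12 listed, 10 had an annotated probe and 8 were detected on at least 1 array. Of these 8, 4 (Krt79, Dgat2l6, Sox9 and Mc5r) were at least 2-fold lower as measured on the stabilised array and 0 higher, with a median of -0.85. At their bounds 3 were, without Mc5r. Over all genes counted there, 4.91% were at least 2-fold lower as measured and 3.3% at bounds. The summed level of the list was 4820 on the stabilised and 24000 on the GFP control array, and 8080 and 9450 on the knockdown arrays against 14500 and 18300 on the controls. Krt79 alone made up most of this sum on the GFP control and tamoxifen control arrays, but not on the stabilised or knockdown arrays. In knockdown 7 were tested and 0 called in limma, with 2 lower and 1 higher at an unadjusted p under 0.05 and a median of -0.36. Krt79, a keratin of the follicle canal and sebaceous duct, read 9.07 on the stabilised and 14.03 on the GFP control array. In the tamoxifen groups Krt79 read 11.50 and 11.83 on the knockdown arrays, against 12.92 and 13.56 on the controls, a log2 fold change of -1.57 with a limma adjusted p of 0.936. Within pairs Krt79 differed by -1.41 at 5 months and -1.73 at 2 months. Sox9, a transcription factor of sebocyte and follicle progenitors, differed by -1.35 on the stabilised array and -0.59 in knockdown. Lrig1, which marks progenitors of the upper follicle, differed by -0.63 and -0.36, and Gata6, a factor of the sebaceous duct, by 0.08 and 0.24. Pparg, the nuclear receptor that drives sebocyte and adipocyte maturation, was nearly level, at 8.98 on the stabilised and 9.02 on the GFP control array, and at 9.01 and 8.91 on the knockdown against 8.97 and 8.87 on the control arrays. The melanocortin receptor Mc5r, which promotes sebum secretion, was detected on 2 arrays and read 4.98 on the stabilised and 6.05 on the GFP control array. Prdm1 and Far2 were below detection on all 6 arrays. In bulk tissue fewer cells of a type and less RNA per cell cannot be told apart, and this holds for every difference given here.

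Of the pathway genes outside the 10, 0 passed the threshold in limma. Their list medians are given with the plot of gene lists. As measured, Alox12e (-4.73) differed on the stabilised array by more than any of the 10 except Fa2h. Of 13 genes listed for fatty acid synthesis and supply, some of them regulators, 9 were tested and 0 called, 2 being lower at an unadjusted p under 0.05. Acacb, an acetyl-CoA carboxylase, had a log2 fold change of -1.04 in knockdown (unadjusted p = 0.0124, limma adjusted p = 0.976) and differed by -1.14 on the stabilised array. Acly, which makes cytosolic acetyl-CoA, differed by -0.25 and 0.03. Of 14 other elongation and desaturation genes, 11 were tested and 0 called, 1 being lower at an unadjusted p under 0.05. Scd2, another stearoyl-CoA desaturase, differed by 0.28 in knockdown and 0.22 on the stabilised array, opposite in sign to Scd1.

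Of 19 genes that make wax esters, triglycerides and sterol esters, 13 were tested and 0 called, 1 being lower at an unadjusted p under 0.05. Dgat2l6, an acyltransferase of the same family as the Awat enzymes, read 4.75, below detection, on the stabilised and 7.93 on the GFP control array. Its knockdown values were 6.00 and 8.05, against 7.46 and 8.11 on the control arrays, so again knockdown replicate 1 was the lowest of the 4. Dgat2, which completes triglyceride synthesis in many tissues, differed by -0.70 on the stabilised array and -0.32 in knockdown. Of 12 lipid droplet and lipolysis genes, 7 were tested and 0 called, with 2 lower and 1 higher at an unadjusted p under 0.05. Plin4, a droplet coat of adipocytes and muscle, was below detection on the stabilised array, with a bound of -1.68, and at -1.04 in knockdown, while Plin2, a droplet coat of many cell types, read 0.33 and 0.72 higher.

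Of 17 cholesterol synthesis genes 11 were tested, all 11 with a lower mean in knockdown, against 48.1% of all genes tested. Of the 11, 0 were called (0 at an unadjusted p under 0.05). The list's median was -0.44 in knockdown and -0.39 on the stabilised array. Msmo1, a sterol methyl oxidase, differed by -0.87 in knockdown, and Nsdhl, another enzyme of sterol demethylation, read -1.32 on the stabilised array. Of 17 ceramide and barrier lipid genes, 14 were tested and 0 called (0 at an unadjusted p under 0.05), with a median of -0.14 in knockdown and -0.05 on the stabilised array. Alox12e, the epidermal lipoxygenase, read 7.13 on the stabilised and 11.87 on the GFP control array, a difference of -4.73. Cers4, a ceramide synthase, read 5.60, below detection, on the stabilised and 6.75 on the GFP control array.

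**Figure D4:**
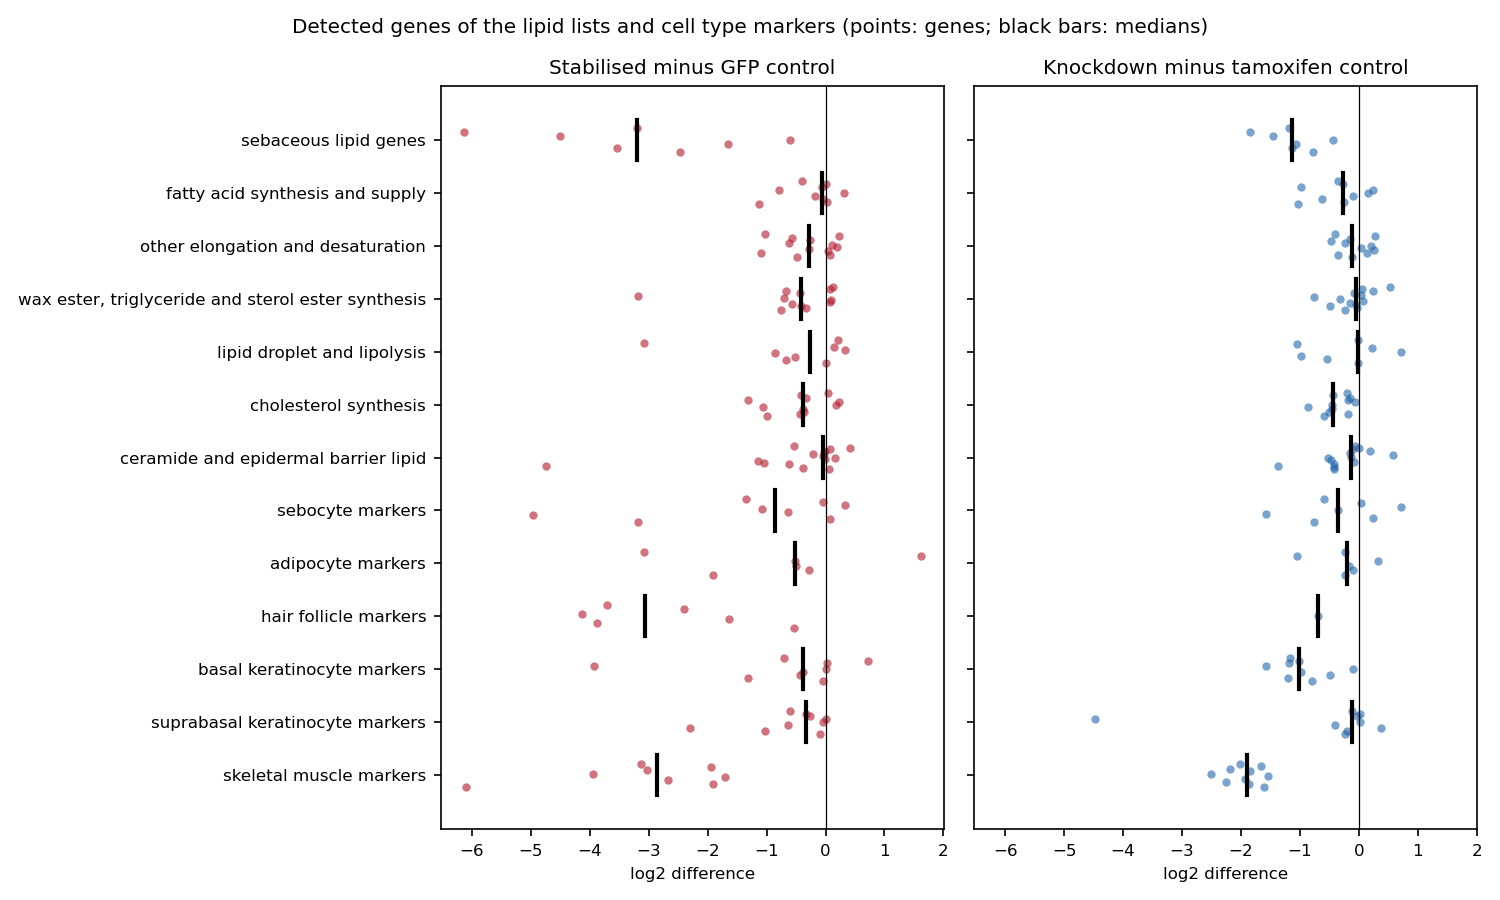
Log2 difference (horizontal axes) of each detected gene (points) for stabilised minus GFP control on the left and knockdown minus tamoxifen control on the right, by gene list (rows), with black bars for the medians. The sebaceous lipid genes detected in each comparison had medians of -3.20 and -1.13, and the 6 other lipid lists lay between -0.42 and -0.05 on the left and between -0.44 and -0.01 on the right.

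Markers of other skin compartments differed on the same arrays. Beside the counts below, 3.3% of all genes were at least 2-fold lower at bounds on the stabilised array, and 48.1% had lower means in knockdown. Of 16 hair follicle markers, 6 were detected in the adenovirus pair and 4 of them were at least 2-fold lower at bounds on the stabilised array, where 5 were below detection, with Krt71 at 4.93 and Krt27 at 5.30 there against 9.05 and 9.18 on the GFP control array. Both keratins were detected on the GFP control array and below detection on the other 5. The summed normalized intensity of the follicle list was 498 on the stabilised and 2410 on the GFP control array, and 625 and 537 on the knockdown arrays against 673 and 838 on the control arrays. On the 5 arrays other than the GFP control most genes of this list were below detection, so background makes up much of those sums. Krt25, Krt31, Krt33a, Krt33b, Krt35, Msx2, Foxn1 and Lhx2 were below detection on every array. Of the 10 skeletal muscle markers, 8 were counted in the adenovirus pair, 5 of them below detection on the stabilised array, and 7 were at least 2-fold lower there at bounds. The summed muscle level was 605 on the stabilised and 6220 on the GFP control array, and 8430 and 45500 on the knockdown arrays against 117000 and 43000 on the controls. The 10 muscle markers all had lower means in knockdown, with a median of -1.90, of -3.68 in the 5-month pair and of -0.15 in the 2-month pair. The part of follicle or muscle content in the lipid gene differences was not tested.

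Of 14 adipocyte markers, 6 were counted in the adenovirus pair and 5 of these read lower on the stabilised array (median -0.51), 4 of them below detection there. At bounds 1 (Plin4) was at least 2-fold lower, against 3.3% of all genes. Adipoq, a hormone of mature adipocytes, read 5.04, below detection, on the stabilised and 6.94 on the GFP control array, and Lpl, a lipase also made by other cells, read 13.86 and 12.24. In knockdown 6 were tested, 5 with lower means, and 0 were called in limma, with 1 lower at an unadjusted p under 0.05. In the 5-month pair their median was -0.64. There 3 (Plin4 at -1.75, Adipoq at -1.43 and Lep at -1.15) were at least 2-fold lower, against 2.8% of all genes. In the 2-month pair the median was 0.21. The summed level of the list, most of it Lpl, was 15800 on the stabilised and 6170 on the GFP control array, and 17100 and 14100 on the knockdown arrays against 16000 and 10500 on the controls. Plin1, Cidec, Fabp4, Retn, Pck1 and Aqp7 were below detection on every array. Of 6 brown adipocyte markers, Ucp1, the uncoupling protein of brown fat, Ppargc1a and Dio2 were too. Cox8b read 7.17 and 9.59 on the knockdown arrays, against 10.99 and 9.39 on the controls, and was below detection on both adenovirus arrays. Ebf2, detected on all 6 arrays, differed by 1.12 on the stabilised array and 0.35 in knockdown. Prdm16 was below detection on the stabilised array only and differed by 0.26 in knockdown. Basal keratinocyte markers had a summed level of 99300 on the stabilised and 107000 on the GFP control array, and of 73700 and 87900 on the knockdown arrays against 98300 and 117000 on the controls. The keratin Krt14, at 15.85 to 16.02 on the 6 arrays, made up most of each of these sums. Among the basal markers, Krt15, a keratin of the follicle bulge, read 8.61 on the stabilised and 12.54 on the GFP control array, while Krt5 read 13.98 and 13.96. Of the 9 basal markers tested, all 9 had lower means in knockdown (median -1.01), against 48.1% of all genes tested. Of these 9, 0 were called and 6 were lower at an unadjusted p under 0.05 in limma, against 2.52% of all genes. Suprabasal markers summed to 182000 on the stabilised and 212000 on the GFP control array. On the knockdown arrays they summed to 192000 and 210000, against 190000 and 229000 on the controls. Krt10 and Lor made up most of each suprabasal sum. Of the 9 suprabasal markers tested, 6 had lower means in knockdown (median -0.11) and 0 were called. Among them Krt2 read 5.89, below detection, and 8.33 on the knockdown arrays, against 11.13 and 12.05 on the controls. Its log2 fold change was -4.48 (limma unadjusted p = 0.0045, adjusted p = 0.976). Macrophage markers had a median difference of 0.88 on the stabilised array and 0.10 in knockdown. The part of these cell types was not tested.

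The genes whose profile over the 6 arrays lay nearest the mean profile of the 10 were sought among 10112 others detected on at least 2 arrays. The measure was the root mean square difference of the centred log2 values, whose median over those genes was 0.88. Pank1, a pantothenate kinase of coenzyme A synthesis, was nearest at 0.14, reading 7.74 on the stabilised and 9.86 on the GFP control array, and 8.08 and 9.10 on the knockdown against 9.12 and 9.63 on the control arrays. Sec14l4 (0.23), the POU factor Pou2f3 (0.25), the peroxisomal oxidase Acox2 (0.26) and the cytochrome Cyp3a57 (0.27) followed. Against the mean of the 7 detected genes alone, a choice made after the values were seen, the nearest were Adig, Panx3, Pnpla5, Ces4a and Clstn3, at 0.15 to 0.25. Apart from Pank1, every gene named by likeness read below the lowest detected signal of the stabilised array (6.30). On knockdown replicate 1 (6.14) all but Pank1, Acox2 and Panx3 did too. Their closeness on these arrays therefore rests in part on values near background.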

How the data were processed

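Values of 6 arrays were read from 2 deposited tables. Per the file headers, the first holds the mean intensity of each probe before normalization, with its detection p-value, for 45281 probes, after 2 stray lines were dropped. The second holds log2 values deposited by the authors (array medians 5.12), made in R 2.14 per the submitters' processing notes, with a normalization that no source here states. They lie within 0.0874 of limma's neqc run on the intensities, which settles scale and direction. They are the main values. The number of arrays limits the precision.

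Genes were named from the platform annotation (34885 probes with 1 symbol, 18 with several, 10378 with none), and gene identifiers changed 0 symbols. Each gene was read from the probe brightest on average over the 6 arrays. Knockdown was tested in limma 3.58.1 (R 4.3.3, 1 mean per group, eBayes, two-sided, Benjamini-Hochberg, 2 residual degrees of freedom) over 9855 genes detected on at least 2 of the 4 tamoxifen arrays. A 2 against 2 exact permutation cannot go below p = 0.333. The labels call the samples biological replicates. In the adenovirus pair, genes detected on at least 1 array were counted from 2-fold. A bound sets the bright level against the higher of the dim value and the array's lowest detected signal (5.95 to 6.30). It holds on the deposited scale only. Counts at bounds, added after the data were seen, use this bound. In them a gene below detection on the high array counts as not lower and stays in the total. Named were all 10 members, up to 4 genes of each list per comparison by smallest p or largest difference, and 5 by likeness. Pparg, Gata6 and the markers given as below detection were named after their values were seen. Members, lists and tests were chosen with earlier results of these data known. Alternatives covered background correction, scaling, the detection filter, probe averaging, variance, replicate block and leaving out each array. The limma fit was checked on simulated data.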

Additional observations from a re-analysis of the deposited data

How the results depend on the processing

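Direction was kept by the 7 tested genes in the knockdown comparison under each alternative run, except Awat2 without knockdown replicate 1 (0.015, and -1.58 without knockdown replicate 2), and adjusted p stayed at 0.136 or more. Leaving out 1 tamoxifen array at a time, the number of genes called ran from 0 to 7, the 7 coming without knockdown replicate 1 and holding 0 of the 10 genes, and the median of the 10 genes ran from -1.62 to -0.20. A fit with 1 array in an arm assumes that it varies like the other group. The replicate block, which here is also age, called 0 genes and 0 of the 10, left the median at -0.92 and gave 746 genes with an unadjusted p under 0.05 against 434 without it; the labels do not pair the animals, and same-numbered deviations correlated at 0.126 over genes. Trended robust variance called 0 genes, with 407 at an unadjusted p under 0.05, and no detection filter gave 861 such genes and the fit without control replicate 2 gave 238. In the stabilised pair the 767 genes past 2-fold became 411 with normexp at an offset of 50, 353 on raw centred intensities and 441 with detection asked on both arrays, where 3 of 4 counted sebaceous lipid genes were past 2-fold; with genes below detection at their bounds, also added after seeing the data, 5 of the 7 were. Fa2h then differed by -4.82 with normexp and -4.32 on raw centred intensities, and Awat2 by -1.45 on raw centred ones. The median of -2.06 became -1.08 on raw centred intensities and -3.20 over the 7 detected genes, a choice added after seeing the data. The cause of these shifts was not tested, apart from fewer genes entering. Signal near background limits Elovl3 and Awat2 on the low arrays and Scd3, Awat1 and Fasn on all.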
